A study of Homo sapiens with 4 samples.

Results

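The genes described here are the factors of nonsense-mediated mRNA decay (NMD) and a set of transcripts that NMD is known to degrade: the noncoding host genes of small nucleolar RNAs (snoRNAs) and the growth-arrest genes GADD45A and GADD45B. Of 33 genes given by name, 32 were found among the 58812 genes of the count files, namely 14 NMD factors, 16 snoRNA hosts and both GADD45 genes. SNHG4 is not analysed here. RNA was measured by sequencing of rRNA-depleted total RNA in A549 cells, an established human lung carcinoma line, at 24 hr after transfection with 1 µg of plasmid. Unmodified A549 cells received either pCMV6-Entry, the empty vector (n = 2 libraries), or a plasmid for SAMD9 carrying a Myc-DDK tag (n = 2 libraries). SAMD9 is an interferon-inducible antiviral protein that is known to repress translation, and its plasmid is driven by a viral promoter in the transfected cells. The comparison asks how these transcripts respond to SAMD9 overexpression.

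NMD destroys mRNAs on which a ribosome stops too early. UPF1, a helicase, is loaded at the stop codon, joins UPF2 and UPF3 bound to an exon junction complex downstream, and is phosphorylated by the kinase SMG1, after which SMG5, SMG6 and other factors lead to cleavage and decay. Many snoRNA host transcripts are spliced, exported and read by ribosomes over short frames, so NMD keeps them scarce, and they are known to accumulate when translation or NMD is blocked. The snoRNAs themselves are cut from the introns and guide the chemical modification of ribosomal and other RNAs.

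Host genes are also known for start sites with a terminal oligopyrimidine, a C followed by a run of C and T that marks mRNAs of the translation machinery. The starts of the hosts that passed the test, together with SNHG5 and SNHG12, are printed because they show how far the hosts share this start. Each line gives 30 bases 5′ to 3′ on the gene's own strand, and the first 5 bases of the RNA are in capitals. The sequences are from RefSeq on GRCh38.p14, in which 14 of the 16 hosts were matched.
ZFAS1 (chr20:49278627-49278656, plus strand): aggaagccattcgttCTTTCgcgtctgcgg
SNHG5 (chr6:85678719-85678748, minus strand): gctgcgcacttcggtCTTTTacgtcggcct
SNHG12 (chr1:28581859-28581888, minus strand): tcgcggcttcagcgcCCTTTctccccgccg
GAS5 (chr1:173869031-173869060, minus strand): tgccatcatgaattcAGATGtgtttatttt
SNHG7 (chr9:136728170-136728199, minus strand): gcttcccttctcgtcCTCTGcgtgcgccgg
SNHG3 (chr1:28505928-28505957, plus strand): cctcagtgagtttctGATTCtctaactgcg
SNHG10 (chr14:95534858-95534887, minus strand): tgggccttatgccggAGCCTcatcctactg
SNHG16 (chr17:76557749-76557778, plus strand): cgcaggggcggtctcGCGTTcttttcgagg
SNHG17 (chr20:38435314-38435343, minus strand): ttgtcgtgtggcctcAGTCCttcgccgtcc
SNHG14 (chr15:24823593-24823622, plus strand): cagttgtcctcctgcGCCGAcctcgaatgc
A start of C followed by 4 bases that are each C or T was found in 3 of the 14 hosts (21.4%): ZFAS1, SNHG5 and SNHG12. The same start was found in 1429 of 35116 RefSeq starts of all genes (4.07%) and in none of 19 starts of 12 NMD factors. ZFAS1 was higher with SAMD9, whereas SNHG5 and SNHG12 were not called (log2 fold changes -0.09 and 0.19). Differences among these 3 hosts were not tested. The annotated start matters to this count. In GENCODE 29, 24 of 199 host transcripts (12.1%) began this way, 6 of the 29 of GAS5 among them, against 4979 of 206694 transcripts of all genes (2.41%). The RefSeq start lay 163 bases from the start in the count files for GAS5, 464 for ZFAS1, 1110 for SNHG12 and 154975 for SNHG14, but 0 for SNHG5, SNHG7 and SNHG10. The core of the interferon-stimulated response element, GAAA followed by any 2 bases and GAAA again, searched on both strands from 250 bases before to 50 after the start, was in none of the 14 host windows and in 1 of 19 NMD factor windows, that of UPF2, against 1255 of 35116 windows (3.57%).

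Library totals were 29301854 and 31434339 counts for empty vector, against 39670083 and 30750029 for SAMD9. The SAMD9 gene went from 444 and 400 counts with empty vector to 220123 and 184350 with its plasmid, and counts do not separate plasmid from endogenous transcripts. Of 10 epithelial markers, 6 were above 1 CPM (counts scaled to a common library size after TMM normalisation) in all libraries and their summed level was 4659 to 5143 CPM with empty vector and 6036 to 6336 CPM with SAMD9. KRT8 and KRT18 led this sum, whereas the lung markers SFTPC and NKX2-1 were at or near 0. The summed markers reached at most 6.999 CPM for leukocytes (8 genes), 1.53 for endothelium (6 genes) and 6.39 for fibroblasts (6 genes). Of these, the fibroblast sum was 1.79 to 2.84 CPM with empty vector and 6.33 to 6.39 with SAMD9. Most of that rise was COL1A1 (mean 1.77 CPM with empty vector and 5.40 with SAMD9). DCN had 0 counts in all libraries, and COL1A2, LUM and PDGFRB were near 0. Whether the replicates were separate cultures is not said in the labels, and the p-values reflect no more than the spread among these libraries. In such bulk RNA, a change in the share of cells and a change per cell cannot be told apart.

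Across the 32 genes, 8 were higher and 7 lower with SAMD9 (edgeR adjusted p below 0.05), and 17 were not called. Those are 25.0% and 21.9% of the members. Over all 19814 genes tested, 27.5% were called, 15.3% higher and 12.2% lower. Of the 14045 protein-coding genes tested, the type of the NMD factors and GADD45 genes, 18.4% were higher and 15.4% lower. The median log2 fold change of the members was -0.03, against -0.01 over all genes. Among the 14 NMD factors, 5 were higher and 1 lower, with a median of 0.12. Among the 16 hosts, 2 were higher and 6 lower, with a median of -0.19, and 13 of the 16 had a negative log2 fold change. Of the GADD45 genes, GADD45A was higher. Libraries were scaled by TMM, which sets the bulk of genes to no change. Scaling by total counts moves the median of all genes down by 0.19 on the log2 scale and turns the members' split from 8 higher and 7 lower to 3 higher and 13 lower, that of the NMD factors to 1 and 3, and that of the hosts to 1 and 10. Over all genes, that scaling called 9.96% higher and 28.5% lower. Under it UPF1, RBM8A, SNHG1, SNHG5, SNHG15 and EPB41L4A-AS1 were also called lower, and UPF3B, SMG5, SMG9 and MAGOH, not called under either scaling, turned from positive to negative.

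**Figure D1:**
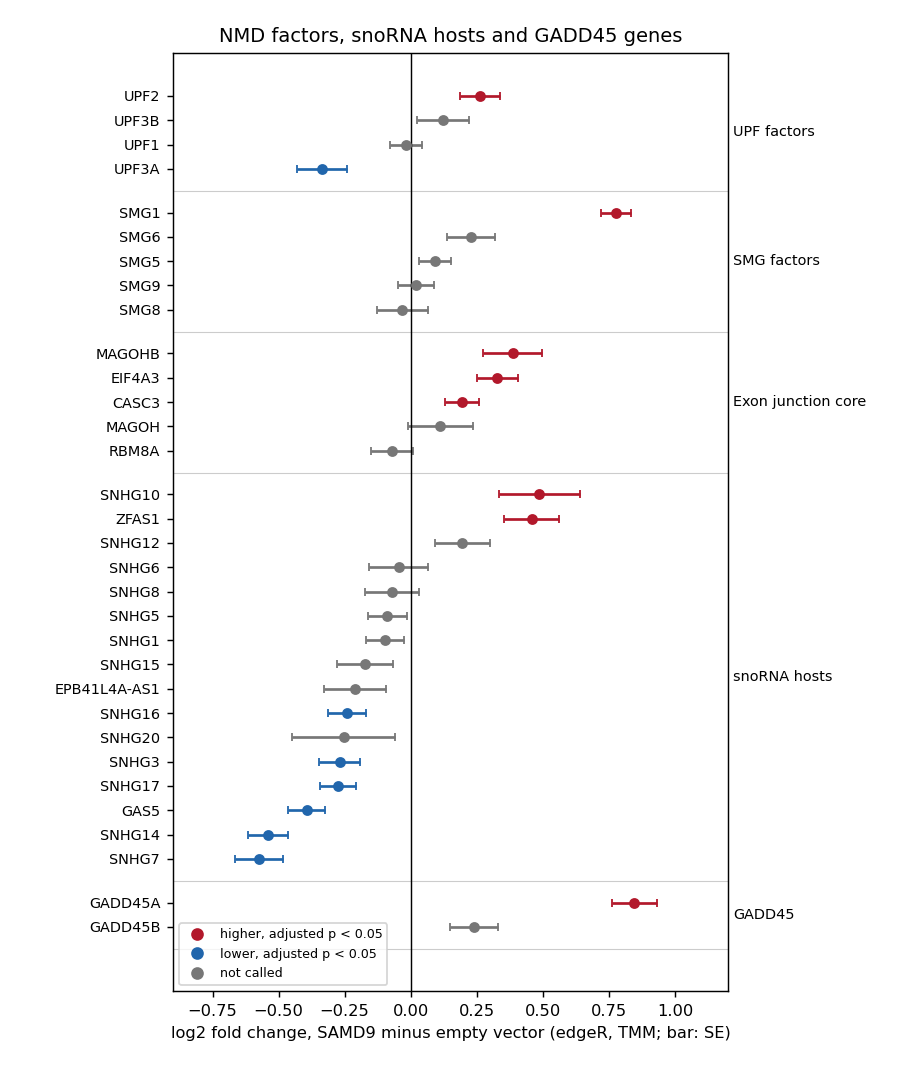
Log2 fold change of each of the 32 genes, SAMD9 minus empty vector, from edgeR with TMM (x axis), grouped by role (y axis); bars are SE, n = 2 libraries per group. Red and blue mark genes higher or lower at adjusted p below 0.05: SMG1 (0.78) and GADD45A (0.85) are farthest to the right, and SNHG7 (-0.57) and SNHG14 (-0.54) farthest to the left.

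The UPF proteins form the core of NMD. Of the 4 genes, 1 was higher and 1 lower, where 15.3% and 12.2% of all genes tested were. UPF1, the helicase at its centre (chromosome 19, 18831938 to 18868236, GRCh38 as in the count files), had 187 and 179 CPM with empty vector and 183 and 177 CPM with SAMD9. The groups overlapped, and the log2 fold change was -0.02 (SE 0.06, adjusted p = 0.87). UPF2, the adaptor between UPF1 and UPF3, had 101 and 85.4 CPM with empty vector and 111 and 113 CPM with SAMD9. Both SAMD9 libraries were above both empty vector libraries, and the log2 difference was 0.26 (SE 0.08, adjusted p = 0.013). This rise was not called without empty vector replicate 2 (0.15, adjusted p = 0.13) or SAMD9 replicate 2 (0.25, adjusted p = 0.073), nor with total-count scaling (0.07, adjusted p = 0.51).

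UPF3A and UPF3B are paralogs that tie UPF2 to the exon junction complex, UPF3B being known as the stronger activator of NMD. UPF3A had 34.2 and 34.0 CPM with empty vector and 26.9 and 27.1 CPM with SAMD9. The groups did not overlap, and UPF3A fell by 0.34 on the log2 scale (SE 0.09, adjusted p = 0.0097). Without SAMD9 replicate 1 or 2 the same size of difference (-0.33) had adjusted p = 0.083 and 0.078. Of its transcripts' 31-base words, 23.6% also occur in other genes, most of them in the pseudogene UPF3AP2. UPF3B had 31.4 and 28.4 CPM with empty vector and 31.03 and 34.1 CPM with SAMD9. The groups overlapped (log2 fold change 0.12, SE 0.10, adjusted p = 0.41).

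Of the 5 SMG genes, SMG1 was higher and 4 were not called, where 15.3% of all genes tested were higher. SMG1, the kinase that phosphorylates UPF1 (chromosome 16, 18804853 to 18926454, minus strand), had 272 and 259 CPM with empty vector and 454 and 456 CPM with SAMD9. The SAMD9 libraries were far above the others, and the mean went from 266 ± 8.75 to 455 ± 1.35 CPM (SD, n = 2), a 1.71-fold rise (log2 0.78, SE 0.06, adjusted p = 2.3e-10). This call was kept under all 8 alternative settings tried. SMG1 has many partial copies on chromosome 16, and 21.3% of its 31-base words occur in other genes, so its reads can be split with them. Among the copies, SMG1P7 was lower on the log2 scale (-0.72, SE 0.18, adjusted p = 0.0043). SMG1P3 was higher (0.30, SE 0.11, adjusted p = 0.042), a call lost under 6 of the alternatives. Not called were SMG1P1 (0.06, adjusted p = 0.92), SMG1P2 (0.11, adjusted p = 0.65) and SMG1P4 (0.27, adjusted p = 0.34). The same held for SMG1P5 (0.004, adjusted p = 0.99) and SMG1P6 (0.46, adjusted p = 0.17).

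None of the SMG factors other than the kinase was called. SMG5, which helps recruit deadenylation, had 209 and 198 CPM with empty vector and 212 and 221 CPM with SAMD9. SMG6, the endonuclease that cuts the target near its stop codon, had 53.9 and 44.5 CPM with empty vector and 60.4 and 54.7 CPM with SAMD9. Both SAMD9 libraries were above both empty vector libraries for SMG5 (log2 fold change 0.09, adjusted p = 0.31) and SMG6 (0.23, adjusted p = 0.071), with neither called. For SMG6 the empty vector libraries stood apart, and without empty vector replicate 1 the log2 fold change was 0.37 (adjusted p = 0.00069). SMG8 and SMG9 form a complex with SMG1 that restrains its kinase. SMG8 had 30.2 and 29.5 CPM with empty vector and 28.9 and 29.5 CPM with SAMD9, and SMG9 had 102 and 97.98 CPM and then 103 and 98.9 CPM. Neither changed beyond the spread of the libraries (log2 fold changes -0.03 and 0.02, adjusted p = 0.86 and 0.88). Under TMM the kinase was thus higher by 1.71-fold beside partners within a few percent of their empty vector level. These levels depend on the scaling, since total counts shift genes down by about 0.19 on the log2 scale. The difference between SMG1 and its partners was not itself tested.

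The exon junction complex is left on mRNA at each splice junction and marks a stop codon upstream of it as early. Of its 5 genes here, 3 were higher and none lower, beside 15.3% and 12.2% of all genes tested. EIF4A3, the helicase that clamps the RNA, had 86.4 and 104 CPM with empty vector and 116 and 122 CPM with SAMD9. The SAMD9 libraries lay above the others, with a log2 difference of 0.33 (SE 0.08, adjusted p = 0.0027) that became 0.14 (adjusted p = 0.17) with total-count scaling. CASC3, the subunit that stimulates NMD, had 123 and 123 CPM with empty vector and 139 and 143 CPM with SAMD9. It was higher by 0.19 (SE 0.06, adjusted p = 0.026). That call was lost without SAMD9 replicate 1 (0.22, adjusted p = 0.11), without SAMD9 replicate 2 (0.18, adjusted p = 0.25) and with total-count scaling (0.01, adjusted p = 0.96).

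MAGOH and MAGOHB are near-identical proteins that hold the complex closed together with RBM8A. MAGOHB had 19.6 and 17.8 CPM with empty vector and 23.0 and 25.7 CPM with SAMD9. The groups were apart, with a log2 difference of 0.39 (SE 0.11, adjusted p = 0.013), lost without empty vector replicate 2 (0.32, adjusted p = 0.061), without SAMD9 replicate 2 (0.31, adjusted p = 0.16) and with total-count scaling (0.20, adjusted p = 0.19). MAGOH had 16.1 and 18.1 CPM with empty vector and 20.1 and 16.8 CPM with SAMD9. Its groups overlapped (log2 fold change 0.11, SE 0.12, adjusted p = 0.57). RBM8A had 54.4 and 52.2 CPM with empty vector and 50.9 and 50.5 CPM with SAMD9 (log2 fold change -0.07, SE 0.08, adjusted p = 0.57), and 30.2% of its 31-base words occur in other genes. The 14 factors summed to 1319 and 1271 CPM with empty vector and to 1559 and 1569 CPM with SAMD9, with SMG1 alone giving the larger share of the difference.

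**Figure D2:**
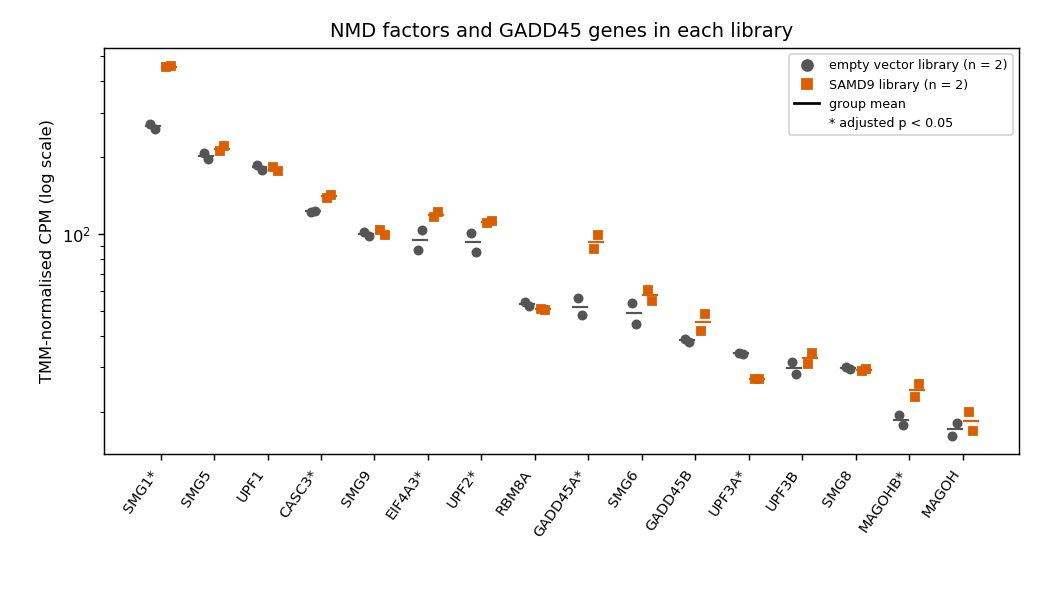
TMM-normalised CPM on a log scale (y axis) of the NMD factors and GADD45 genes (x axis, ordered by empty vector mean) in each library; circles are empty vector, squares SAMD9, short lines the group means, and a star marks adjusted p below 0.05. Both SAMD9 points of SMG1 (454 and 456) sit above its empty vector points (272 and 259), while the points of UPF1 overlap.

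Set per kilobase of listed exonic length, SMG5 led the factors with 38.3 CPM per kb in empty vector. UPF1 (21.2), CASC3 (19.3) and EIF4A3 (19.1) followed. The length includes bases shared with other genes, which gave counts to neither gene, so factors that share more are set too low. SMG6 shares 22.9% of its bases with HIC1. RBM8A shares 14.1% with GNRHR2 and 8.01% with LIX1L-AS1, so the places of SMG6 and RBM8A are uncertain. By this measure RBM8A had 10.2, and SMG1 had 10.2 and moved to 17.5 CPM per kb with SAMD9. MAGOHB (3.84), SMG6 (4.66) and UPF3A (5.91) were lowest in empty vector. With SAMD9, UPF3A and MAGOHB came to 4.68 and 5.02 CPM per kb, which exchanges their order.

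Of the 16 snoRNA hosts, 6 were lower with SAMD9, 2 higher and 8 not called, beside 12.2% of all genes lower and 15.3% higher. Among all 2454 tested genes of the same annotation types, 7.01% were lower and 8.19% higher, with a median log2 fold change of -0.10. The summed level of the hosts was 781 and 775 CPM with empty vector and 665 and 681 CPM with SAMD9, and their share of the counts was 0.0833% and 0.0825% without SAMD9, and 0.0625% and 0.0634% in the SAMD9 libraries. The sums did not overlap. In 12 hosts both SAMD9 libraries were below both empty vector libraries and in 3 they were above, where 30.9% and 31.1% of all tested genes showed these patterns.

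SNHG7, which carries H/ACA snoRNAs, had the largest fall of the hosts (chromosome 9, 136721366 to 136728184, minus strand). It had 44.1 and 43.4 CPM with empty vector and 28.1 and 30.8 CPM with SAMD9. The libraries were well apart, and SNHG7 fell by 0.57 on the log2 scale (SE 0.09, adjusted p = 3.6e-05). Of its exonic bases, 25.2% are shared with DIPK1B, whose own log2 fold change was -0.42 (SE 0.16, adjusted p = 0.055). SNHG14, the long transcript of the imprinted Prader-Willi region that holds the SNORD116 array (chromosome 15, 24978583 to 25419462), had 77.8 and 78.8 CPM with empty vector and 54.9 and 52.7 CPM with SAMD9. It fell by 0.54 on the log2 scale (SE 0.07, adjusted p = 5.6e-06), again with no overlap of the groups.

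SNHG14 runs across UBE3A on the opposite strand, and its extension is known to silence the paternal UBE3A copy in neurons. UBE3A, a ubiquitin ligase, had 93.6 and 89.1 CPM with empty vector and 68.9 and 64.0 CPM with SAMD9, so it was lower as well (log2 fold change -0.46, SE 0.07, adjusted p = 3.7e-05). The counting took no account of strand and gave reads on the 186 shared exonic bases to neither gene. The part of UBE3A reads in the SNHG14 value was not tested.

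GAS5, a host of box C/D snoRNAs and the classic example of a host degraded by NMD, lay lower with SAMD9 (chromosome 1, 173863900 to 173868882, minus strand). It had 93.9 and 92.8 CPM with empty vector and 70.1 and 72.1 CPM with SAMD9. The replicates were close to each other within each group, and GAS5 fell by 0.39 on the log2 scale (SE 0.07, adjusted p = 0.00014). The calls of GAS5, SNHG7 and SNHG14 were kept under all 8 alternative settings tried.

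The other hosts that passed were lower by less. SNHG17, host of the SNORA71 family, had 108 and 113 CPM with empty vector and 94.3 and 88.4 CPM with SAMD9 (log2 fold change -0.27, SE 0.07, adjusted p = 0.0042). SNHG3, host of SNORA73A and SNORA73B, had 63.4 and 61.1 CPM with empty vector and 50.6 and 52.7 CPM with SAMD9 (log2 fold change -0.27, SE 0.08, adjusted p = 0.012). SNHG16 had 87.0 and 89.3 CPM with empty vector and 72.2 and 77.1 CPM with SAMD9 (log2 fold change -0.24, SE 0.07, adjusted p = 0.014). In all 3 hosts the SAMD9 libraries were below the empty vector libraries, but the calls depended on the SAMD9 pair. Without SAMD9 replicate 2 the adjusted p was 0.14 for SNHG17, 0.067 for SNHG3 and 0.054 for SNHG16, and without SAMD9 replicate 1 it was 0.16 for SNHG3 and 0.24 for SNHG16. For SNHG16, 30.6% of the exonic bases are shared with ST6GALNAC2. SNHG3 lies within the span of RCC1 on the same strand and shares 242 exonic bases (5.92%) with it. RCC1 was not called (log2 fold change -0.04, SE 0.07, adjusted p = 0.75), and the part of RCC1 reads in the SNHG3 value was not tested.

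ZFAS1, host of the SNORD12 group (chromosome 20, 49278178 to 49295738), moved the other way. It had 26.0 and 22.4 CPM with empty vector and 31.9 and 34.6 CPM with SAMD9. Both SAMD9 libraries were higher, a 1.37-fold rise (log2 0.46, SE 0.10, adjusted p = 0.0018), and the call was kept in all alternatives, with adjusted p = 0.046 under total-count scaling. ZFAS1 starts head to head with ZNFX1, an RNA-binding helicase gene that belongs to the interferon response, and 249 of its exonic bases (14.7%) lie under ZNFX1 exons. ZNFX1 had 152 and 142 CPM with empty vector and 1317 and 1364 CPM with SAMD9, a 9.12-fold rise (log2 3.19, SE 0.06). The share of ZNFX1 reads in the ZFAS1 count was not tested. Of the 31-base words of ZFAS1, 36.8% occur in other genes.

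SNHG10, host of SCARNA13, was the other host that rose (chromosome 14, 95532297 to 95534872, minus strand). It had 8.25 and 11.2 CPM with empty vector and 12.95 and 14.4 CPM with SAMD9. The empty vector libraries stood apart from each other, and the difference was 1.401-fold (log2 0.49, SE 0.15, adjusted p = 0.020): without empty vector replicate 1 it was 0.28 (adjusted p = 0.22). The call was also lost without SAMD9 replicate 2 (0.42, adjusted p = 0.11), under DESeq2 (0.49, adjusted p = 0.051) and with total-count scaling (0.30, adjusted p = 0.13). GLRX5, which overlaps 20.1% of its exonic bases, had 39.5 and 39.8 CPM and then 38.4 and 36.9 CPM.

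The 8 hosts that did not pass had log2 fold changes between -0.25 (SNHG20) and 0.19 (SNHG12). SNHG1, host of several box C/D snoRNAs, had 78.5 and 75.3 CPM with empty vector and 70.1 and 73.7 CPM with SAMD9 (log2 fold change -0.10, adjusted p = 0.36). SNHG5, host of SNORD50, had 71.3 and 68.7 CPM with empty vector and 64.4 and 67.3 CPM with SAMD9 (-0.09, adjusted p = 0.43). For both, the SAMD9 libraries lay below the empty vector libraries by a gap smaller than the difference between replicates. EPB41L4A-AS1 had 19.3 and 19.1 CPM with empty vector and 15.8 and 17.5 CPM with SAMD9 (-0.21, adjusted p = 0.20), and 49.6% of its exonic bases are shared with EPB41L4A. SNHG15 had 23.8 and 24.4 CPM with empty vector and 20.8 and 22.0 CPM with SAMD9 (-0.17, adjusted p = 0.25). SNHG8 had 24.9 and 26.4 CPM with empty vector and 24.4 and 24.4 CPM with SAMD9 (-0.07, adjusted p = 0.68). The remaining hosts were SNHG6 (-0.05, adjusted p = 0.82), SNHG12 (0.19, adjusted p = 0.19) and SNHG20 (-0.25, adjusted p = 0.38), and of all 16 hosts only SNHG6 had groups that overlapped. SNHG6 had 20.7 and 19.5 CPM with empty vector and 18.7 and 20.4 CPM with SAMD9. SNHG12 had 27.5 and 23.9 CPM with empty vector and 30.5 and 28.2 CPM with SAMD9. SNHG20, the scarcest host, had 6.17 and 5.38 CPM and then 5.18 and 4.47 CPM.

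**Figure D3:**
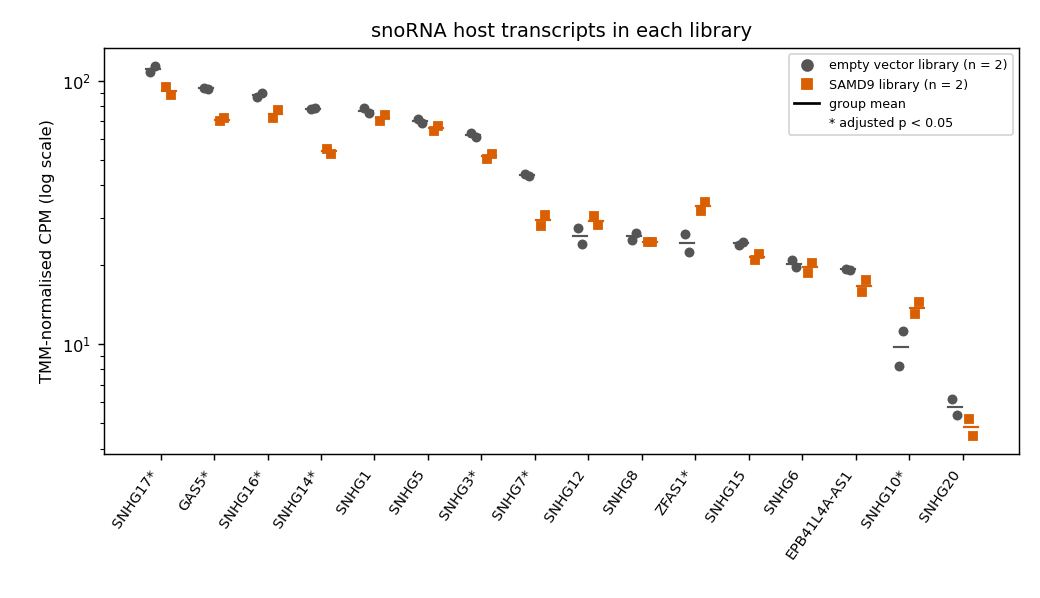
TMM-normalised CPM on a log scale (y axis) of the 16 snoRNA hosts (x axis, ordered by empty vector mean) in each library; circles are empty vector, squares SAMD9, short lines the group means, and a star marks adjusted p below 0.05. The squares of GAS5, SNHG14 and SNHG7 sit below the circles, and those of ZFAS1 and SNHG10 above them.

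Per kilobase of listed exonic length, SNHG5 had the highest host value with empty vector (31.7 CPM per kb). SNHG8 (27.7), SNHG17 (26.4) and GAS5 (25.7) followed. The lowest were SNHG20 (1.85), SNHG14 (2.35) and SNHG10 (5.01). With SAMD9, SNHG5 (29.9) and SNHG8 (26.4) were still first by this measure, and GAS5 and ZFAS1 both stood at 19.6 CPM per kb, from 25.7 and 14.3. The listed length includes bases shared with other genes, which gave counts to neither gene, so hosts that share more are set too low. ZFAS1 shares 14.7% with ZNFX1 and 11.7% with another listed gene, SNHG8 shares 14.2% with SNORA24, and SNHG5 shares 3.17% with SNORD50B. The order over unshared bases was not computed. Called changes were found at high, middle and low values of this measure.

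GADD45A and GADD45B encode small stress proteins that engage p38 signalling and cell-cycle control, and their mRNAs are known NMD targets. GADD45A (chromosome 1, 67685061 to 67688338) had 55.9 and 48.0 CPM with empty vector and 87.3 and 99.5 CPM with SAMD9. It had the largest rise of all 32 genes, 1.80-fold (log2 0.85, SE 0.08, adjusted p = 4.8e-08), kept under all 8 alternatives. GADD45B had 38.9 and 37.7 CPM with empty vector and 41.8 and 48.8 CPM with SAMD9. Its SAMD9 libraries were both higher, but the log2 fold change of 0.24 (SE 0.09) had adjusted p = 0.056, and it passed without empty vector replicate 1 (0.26, adjusted p = 0.044) or without SAMD9 replicate 1 (0.35, adjusted p = 0.027).

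The snoRNA genes that lie inside the hosts give a second view of the same loci. The files list 117 such genes on the strand of 15 hosts and none inside GAS5. Counts were found for 37 of them and 16 had enough to test, of which none was higher and 2 were lower by edgeR. Over all genes tested, 15.3% were higher and 12.2% lower. Of the 29 that share exonic bases with their host, 1 had any count, against 36 of the 88 that lie outside host exons, since reads on shared bases were given to neither gene. SNORA71A in SNHG17 went from 83 and 80 counts to 44 and 34. It was lower by more than its host (log2 fold change -1.09, SE 0.33, adjusted p = 0.017), a difference from the host that was not tested. SNORA71A was not called without empty vector replicate 1 (adjusted p = 0.069) or SAMD9 replicate 1 (0.050).

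SNORD108 in SNHG14 went from 27 and 21 counts to 8 and 3 (log2 fold change -2.16, SE 0.74, adjusted p = 0.032), and the call was lost whenever a library was left out, with adjusted p from 0.063 to 0.26. In SNHG14 the 84 snoRNA genes summed to 323 and 260 counts, and to 239 and 184 with SAMD9. In ZFAS1, SNORD12 gave 47 and 18 counts, against 68 and 66 with SAMD9 (1.02, SE 0.43, adjusted p = 0.083). SNORD12B (0.68, SE 0.34, adjusted p = 0.15) and SNORD12C (0.42, SE 0.34, adjusted p = 0.42) also had positive values without a call. SNORA73B, the most abundant of all and carried by SNHG3, gave 1331 and 857 counts, against 1156 and 766 with SAMD9. The empty vector libraries differed more than the groups did (log2 fold change -0.23, SE 0.15, adjusted p = 0.28). SCARNA13, which guides the modification of spliceosomal RNA, gave 90 and 87 counts, against 132 and 94 with SAMD9, in its host SNHG10 (0.32, SE 0.25, adjusted p = 0.40). RNAs this short are known to be recovered poorly by libraries of this kind.

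**Figure D4:**
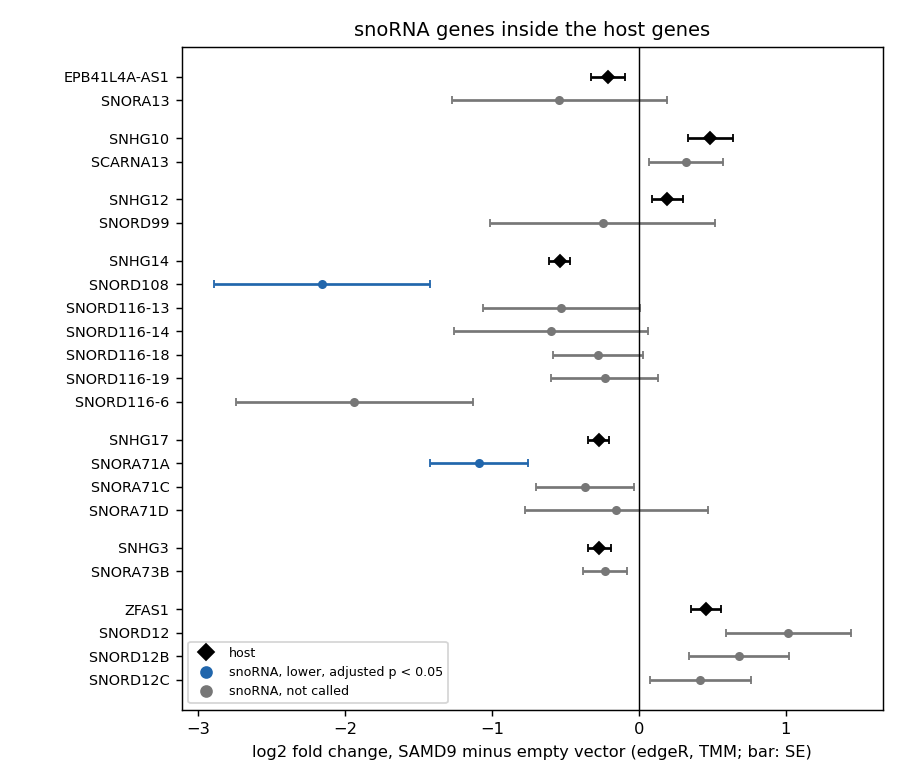
Log2 fold change, SAMD9 minus empty vector (x axis, edgeR with TMM, bars are SE), of each tested snoRNA gene below its host (y axis), hosts as black diamonds. SNORD108 (-2.16) and SNORA71A (-1.09) are the called ones, in blue, and the snoRNAs of ZFAS1 sit to the right of 0 like their host.

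Other genes of the pathway were read from lists of factors, enzymes, hosts and targets. Of 20 further NMD and exon junction genes, 4 were higher, 2 lower and 14 not called, with a median log2 fold change of -0.02. Among all genes tested, 15.3% were higher and 12.2% lower, and among protein-coding genes 18.4% and 15.4%. With total-count scaling 3 of these genes were higher and 11 lower, where 9.96% of all genes were higher and 28.5% lower. MOV10, a helicase that works with UPF1 and is also induced by interferon, had 42.8 and 44.9 CPM with empty vector and 247 and 259 CPM with SAMD9 (2.53, SE 0.07, adjusted p = 1.8e-18). STAU1, a double-stranded RNA binder that recruits UPF1, had 172 and 167 CPM with empty vector and 224 and 235 CPM with SAMD9 (0.44, SE 0.06, adjusted p = 7.2e-06). In both genes the SAMD9 libraries were above the others, and the rise of MOV10 was far larger than that of any NMD factor above.

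Of 19 enzymes that finish the decay of NMD products, 5 were higher (26.3%), 3 lower (15.8%) and 11 not called, with a median of 0.03. Of all protein-coding genes tested, 18.4% were higher and 15.4% lower. Over all genes tested, 15.3% were higher and 12.2% lower. With total-count scaling 3 enzymes were higher and 7 lower, where 9.96% of all genes were higher and 28.5% lower. XRN1, the exonuclease that degrades RNA from its 5′ end, had 44.2 and 37.3 CPM with empty vector and 150.4 and 161 CPM with SAMD9 (1.93, SE 0.08, adjusted p = 7.1e-15). DCP1A, an activator of decapping, had 43.5 and 43.3 CPM with empty vector and 125 and 131 CPM with SAMD9 (1.56, SE 0.07, adjusted p = 4.8e-14). PATL1, which couples deadenylation to decapping, had 95.03 and 91.7 CPM with empty vector and 193 and 192 CPM with SAMD9 (1.04, SE 0.06, adjusted p = 8.7e-12). These 3 genes were each farther from 0 on the log2 scale than any of the 32 members, but other genes of decapping and decay from the 5′ end were not called higher. DDX6, a helicase of the decapping machinery, was lower (-0.30, SE 0.06, adjusted p = 0.00097), and DCP1B, DCP2, EDC3, EDC4 and LSM1 were not called, with log2 fold changes from -0.23 (DCP1B) to 0.04 (EDC4). These 6 were picked out after their values were seen.

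Among 10 tested noncoding hosts outside the members, none was higher and 3 were lower (30.0%) by edgeR, with a median of -0.23. Over all genes tested, 15.3% were higher and 12.2% lower. DANCR, host of SNORA26, had 13.2 and 15.8 CPM with empty vector and 8.50 and 7.40 CPM with SAMD9 (-0.86, SE 0.15, adjusted p = 9.0e-05). SNHG32 had 44.5 and 41.5 CPM with empty vector and 35.9 and 35.9 CPM with SAMD9 (-0.26, SE 0.09, adjusted p = 0.029), and SNHG19 had 6.90 and 8.90 CPM and then 5.15 and 6.08 CPM (-0.50, SE 0.18, adjusted p = 0.048). DESeq2 kept 1 of these 3 calls, DANCR, and total-count scaling called 6 of the 10 lower, beside 28.5% of all genes.

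Of 42 hosts that encode proteins, 11 were higher (26.2%), 5 lower (11.9%) and 26 not called, with a median of 0.04. Of all protein-coding genes tested, 18.4% were higher and 15.4% lower. Over all genes tested, 15.3% were higher and 12.2% lower. Total-count scaling instead gave 1 higher and 21 lower, where it called 9.96% of all genes higher and 28.5% lower. CHD8, a chromatin remodeller, had 201 and 190 CPM with empty vector and 269 and 279 CPM with SAMD9 (0.49, SE 0.06, adjusted p = 1.2e-06). PTCD3, a mitochondrial ribosome protein, had 74.0 and 70.8 CPM with empty vector and 59.3 and 53.9 CPM with SAMD9 (-0.35, SE 0.08, adjusted p = 0.0013). Of the 8 proteins that bind or assemble box C/D snoRNAs, NOP56 was higher (224 and 242 CPM, then 266 and 294, log2 fold change 0.26, SE 0.06, adjusted p = 0.0033) and 7 were not called, among them the methyltransferase FBL (0.08, adjusted p = 0.34, and -0.11 with total-count scaling) and SNU13 (-0.15, adjusted p = 0.21). NOP56 is also among the coding hosts. Total-count scaling took away its call (0.08, adjusted p = 0.38) and called 4 of the 8 lower.

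Of 18 other transcripts described as sensitive to NMD, 7 were higher (38.9%), 1 lower (5.56%) and 10 not called, with a median of 0.06. Over all genes tested, 15.3% were higher and 12.2% lower. With total-count scaling 4 of the 18 were higher and 7 lower, beside 9.96% and 28.5% of all genes. ATF3, a stress transcription factor that is also induced directly by many stimuli, had 76.0 and 53.9 CPM with empty vector and 346 and 367 CPM with SAMD9 (2.46, SE 0.10, adjusted p = 4.5e-15). MAP3K14, the kinase of noncanonical NF-kB signalling, had 74.8 and 78.9 CPM with empty vector and 141 and 167 CPM with SAMD9 (1.00, SE 0.08, adjusted p = 4.8e-10). GABARAPL1, an autophagy protein, had 39.3 and 33.4 CPM with empty vector and 59.6 and 62.4 CPM with SAMD9 (0.75, SE 0.09, adjusted p = 6.7e-07). Of the 18 transcripts, 8 had log2 fold changes below 0, so the list did not move as one. The coding targets with the lowest p were higher with SAMD9, as was GADD45A, while most noncoding hosts that passed were lower. The contrast between these kinds of target was not tested.

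**Figure D5:**
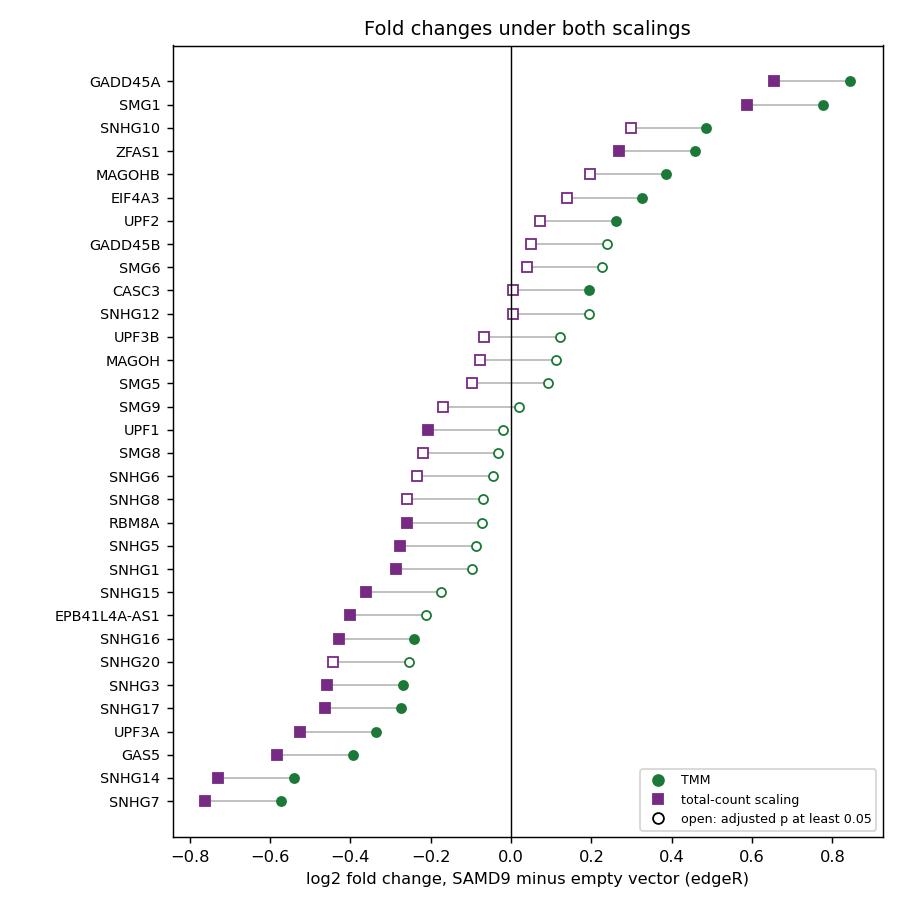
Log2 fold change of each of the 32 genes, SAMD9 minus empty vector (x axis), from edgeR with TMM (circles) and with total-count scaling (squares), filled where adjusted p is below 0.05; genes are ordered by the TMM value (y axis). Total-count scaling shifts all genes to the left by about 0.19, and SMG1, GADD45A and ZFAS1 are called higher under both.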

How the data were processed

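Each deposited file held 1 library's raw counts per Ensembl gene, with the CPM and RPKM that the authors had computed from those counts. The deposited CPM equalled the count scaled by the library total and RPKM equalled CPM per kilobase of the listed length, so neither was tested. The submitters' processing notes name GRCh38, STAR 2.5.1a, bcl2fastq, Subread and featureCounts 1.4.6-p5. Annotation release and counting parameters: not given in the sources used here.

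The counting could be read from the values. All 664 genes whose exons lie wholly under exons of the opposite strand had 0 counts in all libraries, as had all 1016 covered on the same strand. Reads on exonic bases shared by genes were therefore counted for none of them, whatever the strand. Among counts from 1 to 20, 72.9% were even, so a read pair may give 2 counts.

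Gene IDs were named from a table of symbols and otherwise from GENCODE 29. The test on counts was edgeR 4.0.16 under R 4.3.3 (filterByExpr with minimum count 10 and minimum total 15, TMM, glmQLFit, glmQLFTest, no covariate), with Benjamini-Hochberg adjustment over all 19814 genes tested and calls below 0.05. The procedure was also tested on counts simulated from the means of these data, with a dispersion common to all genes. SE was computed as |log2 fold change| over the root of the F statistic. CPM in the text is TMM-normalised. DESeq2 1.42.0, total-count scaling, no filter, each library left out and a replicate block were the alternatives. Same-numbered libraries did not deviate together (r = 0.00415 over 19814 genes). The members, lists and named-gene rule (all members, and the 3 genes of lowest p in each other list) were chosen with earlier results of these data known. Non-host entries were later dropped from 2 host lists: 3 genes too scarce to test, and HSP90AB1, which holds no listed snoRNA gene. Some genes that the rule names are left out of the text.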

Additional observations from a re-analysis of the deposited data

How the results depend on the processing

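Of the 15 calls among the members, 6 (SMG1, GAS5, ZFAS1, SNHG7, SNHG14 and GADD45A) were kept under all 8 alternatives. With total-count scaling, 1974 genes were higher and 5653 lower, of the members 3 and 13, of the NMD factors 1 and 3, and of the hosts 1 and 10. That scaling gave negative log2 fold changes, opposite in sign to TMM, for UPF3B (-0.0673), SMG5 (-0.10), SMG9 (-0.17), MAGOH (-0.0765) and FBL (-0.11). DESeq2 called 1 host higher. Without a library (1 of 4 each time), 2291 to 3123 genes were higher and 1466 to 2279 lower, 4 to 9 members higher and 3 to 7 lower, 2 to 6 NMD factors higher and 0 to 1 lower, and 1 to 2 hosts higher and 3 to 6 lower. Calls were fewest without SAMD9 replicate 2, and the NMD factor called lower, UPF3A, was lost without either SAMD9 replicate. In these fits the log2 fold changes ranged from -0.0466 to 0.0149 for UPF1, from -0.0105 to 0.0566 for SMG9, from -0.0217 to 0.236 for MAGOH and from -0.102 to 0.0206 for SNHG6, none of them called. The lone library left in a group was assumed to vary like the other group. The cause was not tested. With the replicate block, 8 members were higher and 7 lower and no member's call changed; the numbers did not pair the libraries. At this depth 1 count was worth 0.0268 to 0.0349 CPM.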
